A study of Mus musculus with 13 samples.

Results

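The 10 genes described here encode regulators of the smooth muscle phenotype: Myocd, Srf, Mkl1, Mkl2, Klf4, Klf5, Olfm2, Elk1, Foxo3 and Tcf21. They were taken by gene name from a table of 54532 genes, and all 10 were found and passed the filter on low counts. The table gives read counts in 13 whole aortas of ApoE-/- mice in which AngII was released from a subcutaneous pump at 1000 ng/kg/min for up to 28 days from 10 weeks of age, a model of abdominal aortic aneurysm (AAA). Of these aortas, 6 came from mice given an empty adenovirus (Ad-sham) and 7 from mice given an adenovirus that expresses mouse Fam3a with a FLAG tag (Ad-FAM3A), by 5 tail vein injections in each mouse. The study's methods name both an EF1A construct and a CMV vector for this virus. Both groups lacked Apoe and received AngII and virus, and there was no aorta without them. The labels do not give the sex or how much virus reached the aorta.

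Contractile smooth muscle cells of vessels (VSMCs) keep a contractile state through a small set of transcription factors. SRF binds CArG boxes in the promoters of contractile genes, and its coactivators myocardin (Myocd) and the myocardin-related factors (Mkl1 and Mkl2) switch those genes on. Elk1 is an SRF partner that competes with myocardin and drives growth genes, Klf4 and Klf5 are zinc finger factors linked to loss of the contractile state, Foxo3 is a forkhead factor of the insulin and Akt pathway, Olfm2 has been described as an SRF cofactor in smooth muscle differentiation, and Tcf21 is a basic helix-loop-helix factor of adventitial and fibroblast-like cells. Myh11, the smooth muscle myosin heavy chain, and Acta2, smooth muscle actin, are the contractile genes against which the regulators were compared.

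All 10 are protein-coding genes, with positions in GRCm38 as the table gives them. On the minus strand lie Srf (ENSMUSG00000015605) at chr17:46548329-46556175, Myocd (ENSMUSG00000020542) at chr11:65176561-65269989, Mkl1 (ENSMUSG00000042292) at chr15:81012281-81190757 and Klf4 (ENSMUSG00000003032) at chr4:55527143-55532466. Also on the minus strand are Elk1 (ENSMUSG00000009406) at chrX:20933395-20950608, Foxo3 (ENSMUSG00000048756) at chr10:42181841-42276755, Olfm2 (ENSMUSG00000032172) at chr9:20667690-20746349 and Tcf21 (ENSMUSG00000045680) at chr10:22817281-22820174. On the plus strand lie Mkl2 (ENSMUSG00000009569) at chr16:13256481-13417529 and Klf5 (ENSMUSG00000005148) at chr14:99298691-99315036.

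The CArG box is the sequence through which SRF and its cofactors meet their targets, so the boxes found in promoters of the regulators and of the contractile targets are shown, with the box in capitals. The windows are RefSeq promoters of GRCm38.p6 that run from 250 bases before to 50 bases after each start, and 8 of the 10 regulators have one. Among all 32851 windows, 535 (1.63%) hold a box. Among the regulators, Srf alone held a box in its window, with 2 of them, the first starting 82 and the second 62 bases before the start that RefSeq gives, which lies inside the gene as the count table bounds it. Of 24 contractile target genes listed for this work, 21 have a window and 4 of them held a box. The stretches are given 5′ to 3′ on the strand of the gene, at chr17:46556207-46556252 (minus strand) for Srf, chr2:156775297-156775318 (plus strand) for Myl9, chr10:79988538-79988559 (plus strand) for Cnn2, chr14:20929165-20929186 (plus strand) for Vcl and chr14:34588701-34588722 (minus strand) for Ldb3.
Srf: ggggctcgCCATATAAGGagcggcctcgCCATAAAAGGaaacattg
Myl9: cagaggCCTAATAAGGccgggc
Cnn2: tccacgCCTTATAAGGacattt
Vcl: ctatgcCCTTATAAGGagcgcc
Ldb3: tacagtCCATTTATGGgcgcag

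Acta2 has a window with no box in it, and a window without a match says only that these letters are not within it. The core motif bound by KLF factors, CACCC on either strand, is common: 18895 windows (57.5%) hold it, among them those of Srf, Mkl1, Mkl2, Olfm2 and Elk1 and of Acta2, but not those of Klf4, Foxo3 and Tcf21. These matches are a description of sequence and carry no measurement of binding.

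Total counts were 14481179 to 19797407 per aorta, with medians of 16193850 in Ad-sham and 16013910 in Ad-FAM3A. Levels are given as CPM, the counts of a gene scaled to a common library size, after TMM normalization, and as log2 CPM with a prior count of 2. The virus should add mouse Fam3a transcripts, but Fam3a was 17.9, 24.9 and 30.3 CPM (lowest, median and highest) in the 6 aortas labelled Ad-sham and 18.5, 23 and 29.8 CPM in the 7 labelled Ad-FAM3A. The groups overlapped throughout (log2 fold change -0.028, SE 0.16, edgeR quasi-likelihood adjusted p = 0.971). The targeted gene therefore does not separate the groups, and each direction below is between aortas as they are labelled. The aortas also differed in other tissue: the summed kidney markers were 0.606 to 648 CPM in Ad-sham and 0.878 to 362 CPM in Ad-FAM3A, the B cell markers 85.5 to 356 CPM and 52.1 to 15684 CPM, and lists that touch a regulator stand beside it. In whole tissue, fewer cells of a type and less RNA per cell cannot be told apart.

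The contractile genes varied widely among the aortas. Myh11 was 536, 1896 and 3628 CPM in Ad-sham and 494, 2035 and 4739 CPM in Ad-FAM3A, and Acta2 was 1871, 3900 and 7117 CPM in Ad-sham and 1368, 6575 and 10205 CPM in Ad-FAM3A. They moved together (r = 0.96 over 13 aortas), so their mean log2 CPM was used as the contractile level of an aorta. It was 11.34 ± 0.82 (SD, n = 6) in Ad-sham and 11.57 ± 1.0 (SD, n = 7) in Ad-FAM3A, a difference of 0.23 (two-sided exact permutation test over 1716 splits, p = 0.656). Ad-sham1, at 9.97, and Ad-FAM3A6, at 9.68, were the lowest, and the other 11 aortas lay between 11 and 12.76. The same 2 aortas held the highest sums of cardiac muscle markers, 327 and 225 CPM, against 9.67 CPM in the lowest aorta, and 3 of the 8 cardiac markers (Myl7, Nppa and Mybpc3) were at 0 in at least 1 aorta. Ad-FAM3A6 also held the highest sums of the B cell markers, 15684 CPM, and of the T cell markers, 261 CPM. The part of any of these tissues in the low contractile level was not tested.

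To compare the regulators with each other, levels were divided by the gene length in the table. The regulators were far below their targets: the median was 2579 CPM per kb for Acta2 and 268 for Myh11, against 22.3 for Srf, 20.2 for Klf4, 10.4 for Foxo3, 7.36 for Myocd, 5.8 for Mkl2, 4.56 for Mkl1, 3.28 for Olfm2, 3.21 for Elk1, 0.704 for Tcf21 and 0.448 for Klf5. Only 2 of the 9 steps in this order were larger than the spread over aortas. Klf4 exceeded Foxo3 by 0.98 on the log2 scale in 13 of 13 aortas, and Elk1 exceeded Tcf21 by 2.77 in 13 of 13 (exact sign-flip test, adjusted p = 0.0011 over the 9 steps for both). These steps were taken without a prior count. The mean of 2.77 (SD 1.39) is therefore raised by Ad-FAM3A6 and Ad-FAM3A5, where Tcf21 was near the floor at 0.026 and 0.094 CPM per kb. Srf and Klf4, Olfm2 and Elk1, and Tcf21 and Klf5 were neighbours that could not be ordered (adjusted p = 0.781, 0.966 and 0.966 by the same exact test).

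**Figure D1:**
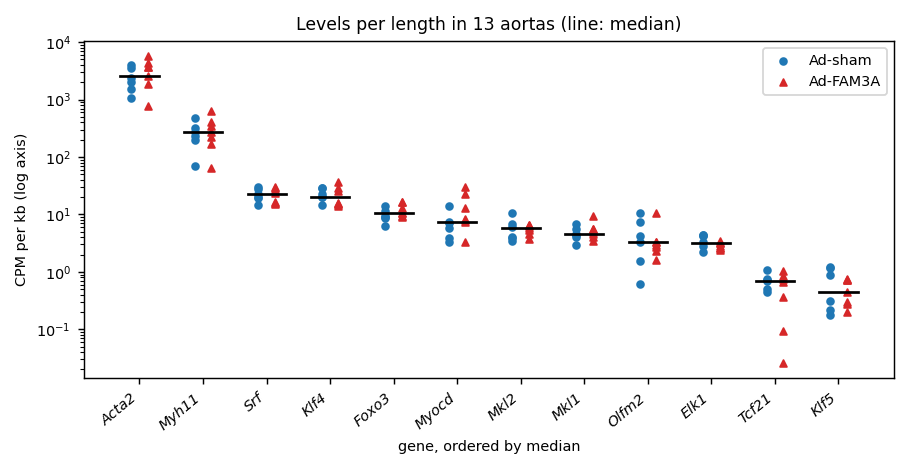
Levels of the 10 regulators, Acta2 and Myh11 in CPM per kb (log axis), each point 1 aorta (circles Ad-sham, n = 6, triangles Ad-FAM3A, n = 7) and each line the median over 13 aortas. The regulators lie below Myh11, from a median of 22.3 for Srf to 0.448 for Klf5.

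The first question was whether the regulators differed between the groups. None of the 10 passed the threshold, and no gene of the 15811 tested did (0% called at an adjusted p under 0.05 by edgeR's quasi-likelihood test). At an unadjusted p under 0.05, 0 of the 10 regulators and 934 of all genes (5.91%) were counted. The fitted median was -0.069 for the regulators and 0.0032 for all genes, on the log2 scale, with 3 regulators above 0 and 7 below.

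Myocd, the coactivator that sets the contractile program, had the highest fitted log2 fold change of the 10 with all aortas in edgeR. It was 21.2, 41.8 and 89.4 CPM in the Ad-sham aortas and 21.3, 53.3 and 192 CPM in the Ad-FAM3A aortas. The 2 highest values were Ad-FAM3A5 (192 CPM) and Ad-FAM3A4 (147 CPM), 6 of 7 Ad-FAM3A aortas were above the Ad-sham median, and the groups overlapped below 89.4 CPM. The log2 fold change was 0.94 (SE 0.47, p = 0.0647, adjusted p = 0.81 by edgeR), which was 0.62 without Ad-FAM3A5, and the exact permutation test on log2 CPM gave p = 0.153.

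Srf, the partner of myocardin on the CArG box, was 42.8, 61.8 and 87.3 CPM in Ad-sham and 44.1, 67 and 88.3 CPM in Ad-FAM3A. Both groups covered the same range, and the log2 fold change was -0.011 (SE 0.22). Of the myocardin-related coactivators, Mkl1 was 17.7, 26.9 and 42 CPM in Ad-sham and 21.5, 30.6 and 58.3 CPM in Ad-FAM3A, where Ad-FAM3A6 was the highest. Mkl2 was 30.9, 45.8 and 95.9 CPM in Ad-sham and 34.1, 52.2 and 58.5 CPM in Ad-FAM3A, with the highest value in Ad-sham6. Their log2 fold changes were 0.21 (SE 0.24) and -0.076 (SE 0.25), and neither separated the groups. Without Ad-FAM3A6 the Mkl1 value was 0.008, and without Ad-sham6 the Mkl2 value was 0.18.

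Klf4, the factor to which the study links Fam3a, was 44.5, 66.1 and 89.3 CPM in Ad-sham and 43.5, 47.7 and 112 CPM in Ad-FAM3A. The Ad-FAM3A aortas held both the lowest and the highest value, and 3 of 7 were above the Ad-sham median. The log2 fold change of its transcript was -0.062 (SE 0.25, edgeR adjusted p = 0.96, exact permutation p = 0.648). These are transcripts, and the data hold no measure of the protein. Klf5, its relative, was low, at 0.909, 3.07 and 6.36 CPM in Ad-sham (15 to 136 counts) and 1.05, 2.33 and 3.96 CPM in Ad-FAM3A (17 to 66 counts), with a log2 fold change of -0.43 (SE 0.51) that was -0.17 without Ad-sham5, -0.19 without Ad-sham6, -0.28 without Ad-FAM3A2 and -0.23 with limma-voom.

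Elk1 was 12, 20.4 and 23.4 CPM in Ad-sham and 12.9, 14.9 and 18.5 CPM in Ad-FAM3A. All 7 Ad-FAM3A aortas lay below the Ad-sham median, within the range of the Ad-sham aortas, and the log2 fold change was -0.30 (SE 0.18, adjusted p = 0.812 by edgeR). Foxo3 was 47.5, 69.9 and 104 CPM in Ad-sham and 68, 81.8 and 127 CPM in Ad-FAM3A, with 6 of 7 Ad-FAM3A aortas above the Ad-sham median and a log2 fold change of 0.33 (SE 0.20, adjusted p = 0.812 by edgeR). Elk1 shares 76 exonic bases with Uxt on the same strand, so reads there cannot be assigned to 1 of the 2 genes.

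Olfm2 was 1.64, 9.89 and 28.7 CPM in Ad-sham and 4.36, 7.7 and 27.9 CPM in Ad-FAM3A, a 17.6-fold span over the aortas with 1 high aorta in Ad-FAM3A (Ad-FAM3A3). Tcf21 was 1.03, 1.67 and 2.52 CPM in Ad-sham (16 to 54 counts) and 0.0611, 1.56 and 2.46 CPM in Ad-FAM3A. The 3 lowest Tcf21 aortas were Ad-FAM3A6 with 1 count, Ad-FAM3A5 with 3 counts and Ad-FAM3A3 with 12 counts, of which the first 2 are at or under the 3 counts that a count of 0 allows. Their log2 fold changes were -0.27 (SE 0.57) for Olfm2 and -0.37 (SE 0.57) for Tcf21. Both depended on the fit and on single aortas. Olfm2 was -0.75 without Ad-FAM3A3, 0.15 without Ad-sham5 and -0.044 with limma-voom. Tcf21 was -0.93 with limma-voom, -0.15 without Ad-FAM3A6, -0.17 without Ad-FAM3A5, -0.21 without Ad-sham5 and -0.60 without Ad-FAM3A1.

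**Figure D2:**
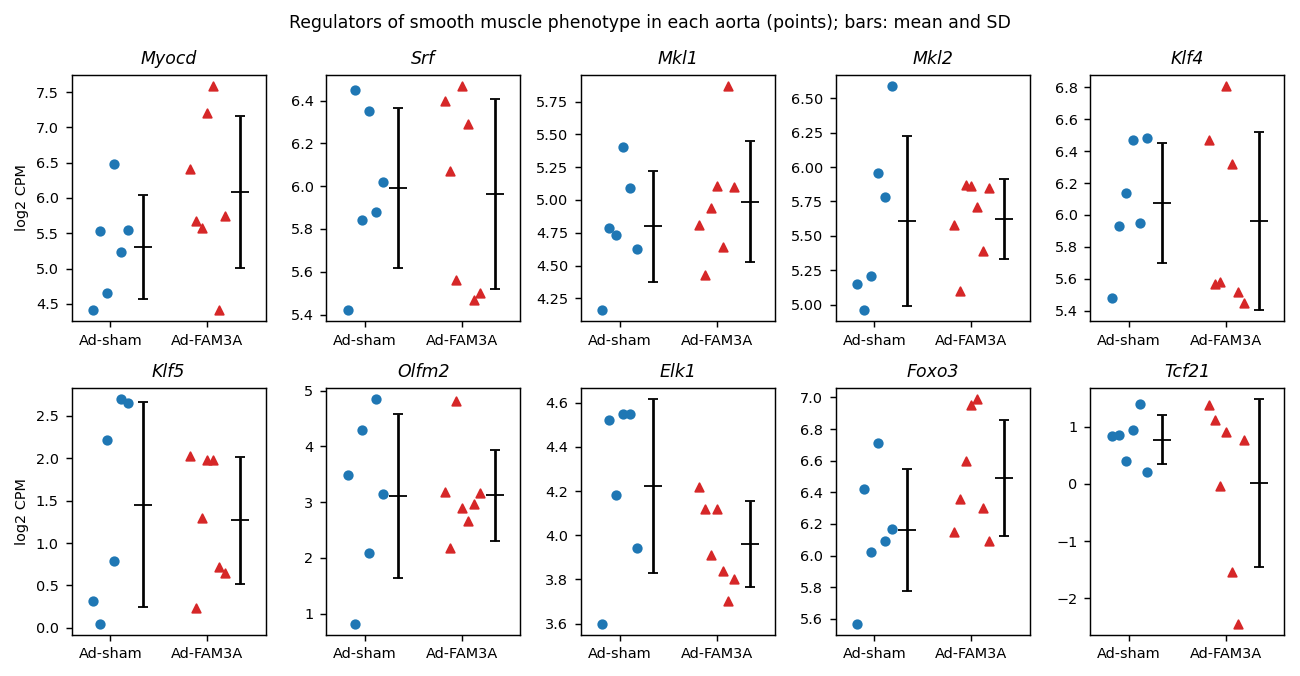
log2 CPM of each regulator in each aorta, with circles for the 6 Ad-sham and triangles for the 7 Ad-FAM3A aortas and bars for the mean and SD of each group. The points of the groups overlap in each panel, and the single low points of Tcf21 are Ad-FAM3A6 and Ad-FAM3A5.

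The second question was how the regulators relate to the contractile genes. Across all aortas, 3 of the 10 regulators were called for a slope on the contractile level in a fit with the group as a term (edgeR, adjusted p under 0.05), against 1751 of 15809 genes (11.1%), and all 3 rose with it, against 1209 of all genes (7.65%). The median slope was 0.33 for the regulators and -0.002 for all genes, as log2 change per log2 unit of the contractile level. Slopes were above 0 for 8 regulators and below 0 for Mkl1 and Olfm2.

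Myocd rose most with the contractile level, by 0.91 per log2 unit (SE 0.16, edgeR adjusted p = 0.00342). Srf rose by 0.40 (SE 0.07, edgeR adjusted p = 0.003). The relation of both was clear in the single values: Ad-sham1 and Ad-FAM3A6, the aortas with the least Myh11, held 21.2 and 21.3 CPM of Myocd and 42.8 and 44.1 CPM of Srf, and Ad-FAM3A4, with the most, held 147 and 88.3 CPM. Klf4 rose by 0.37 (SE 0.11, edgeR adjusted p = 0.0475), at the edge of the threshold: it was called in 5 of 25 alternative analyses, while Srf was called in 23 and Myocd in 22. Without Ad-FAM3A6, Srf kept a call (slope 0.51, adjusted p = 0.0104) and Myocd did not (0.90, adjusted p = 0.0536), and without both Ad-sham1 and Ad-FAM3A6 neither did (0.58 and 1.08, edgeR adjusted p = 0.0527 and 0.105), with 103 of all genes still called.

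Foxo3, at 0.29 (SE 0.089, adjusted p = 0.0557), and Elk1, at 0.24 (SE 0.084, adjusted p = 0.0819), were next by adjusted p, not by slope, and did not pass. Tcf21 had a slope of 0.52 (SE 0.37), Klf5 of 0.39, Mkl2 of 0.093, Mkl1 of -0.12 and Olfm2 of -0.36 (SE 0.42), with adjusted p-values from 0.419 to 0.757 in edgeR. The low aortas carried much of these values: without Ad-FAM3A6 the slope was 0.085 for Tcf21, -0.88 for Olfm2 and 0.20 for Mkl1, and without Ad-sham1 it was 0.86, -0.60 and -0.30. Olfm2 was -0.13 without Ad-sham2, Klf5 was 0.20 and Mkl2 -0.040 without Ad-sham1.

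**Figure D3:**
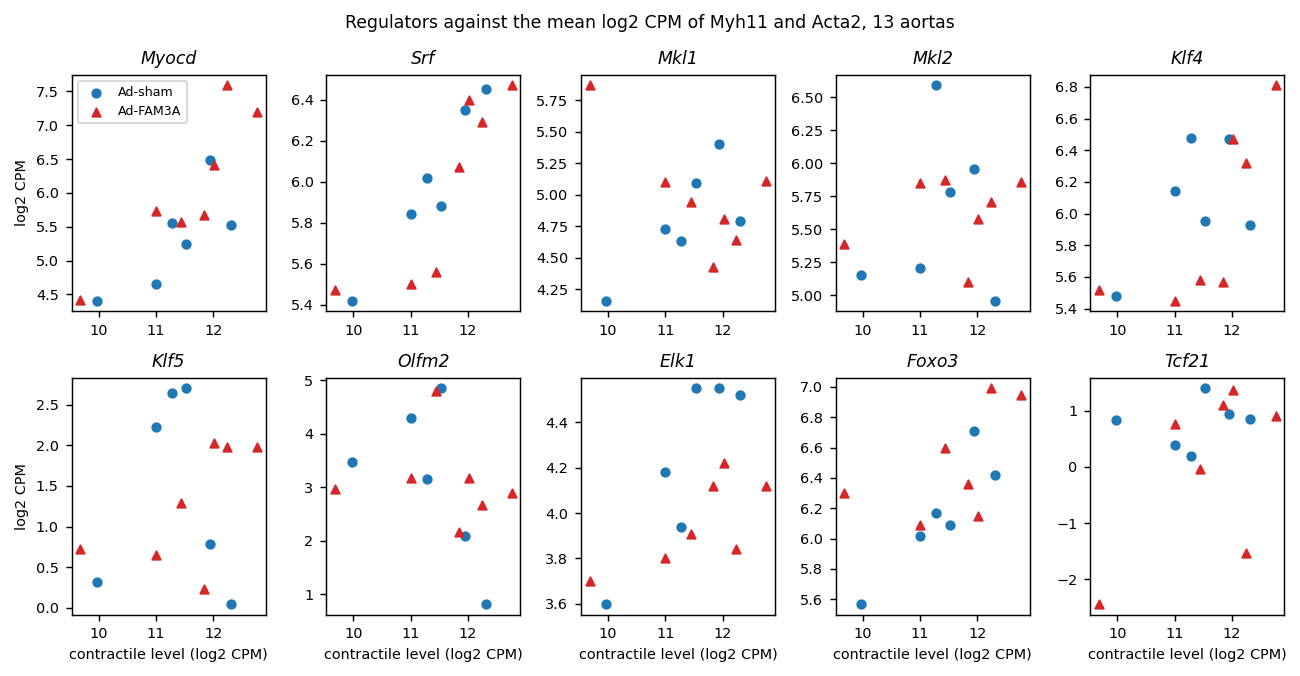
log2 CPM of each regulator (vertical axis) against the contractile level, the mean log2 CPM of Myh11 and Acta2 (horizontal axis), in 6 Ad-sham (circles) and 7 Ad-FAM3A (triangles) aortas. Myocd and Srf rise along the axis, while Mkl1 and Olfm2 do not; the 2 aortas on the left are Ad-FAM3A6 and Ad-sham1.

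Each regulator was also correlated with Myh11 and Acta2 separately, 20 relations in all, and 8 of them passed at a Benjamini-Hochberg adjusted p under 0.05 for Pearson's r and 6 for Spearman's rho (permutation tests with 100000 resamples, two-sided). Srf followed Myh11 with r = 0.89 (rho = 0.96, adjusted p = 0.0002 for both), and r was 0.88 without the 2 aortas farthest from the median, Ad-sham1 and Ad-FAM3A6. Within the groups it was 0.94 in Ad-sham and 0.86 in Ad-FAM3A (exact permutation p = 0.00417 and 0.00119). With Acta2, Srf had r = 0.86 (adjusted p = 0.0015), and 0.80 without those aortas. Myocd followed Acta2 with r = 0.85 (rho = 0.78, adjusted permutation p = 0.0016 and 0.0153) and 0.78 without them, and Myh11 with r = 0.79 (adjusted permutation p = 0.00665). Without the 2 low aortas the r of Myocd with Myh11 was 0.67 and no longer passed (adjusted permutation p = 0.082), and within the groups it was 0.71 in Ad-sham and 0.91 in Ad-FAM3A (exact permutation p = 0.115 and 0.00575).

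Klf4 correlated with Myh11 (r = 0.70, rho = 0.69, adjusted permutation p = 0.0221 and 0.0437) and less with Acta2 (r = 0.60, adjusted p = 0.063). Without the 2 lowest aortas its r was 0.61 with Myh11 and 0.42 with Acta2, and neither passed (adjusted permutation p = 0.133 and 0.398). Foxo3 had r = 0.70 with Acta2 and 0.67 with Myh11 (adjusted permutation p = 0.025 and 0.0321), and 0.77 and 0.69 without those aortas. These passed in 14 and 11 of 16 alternatives, with r down to 0.61 and 0.52 without Ad-sham1 (adjusted permutation p = 0.118 and 0.145). By rank Foxo3 passed with Acta2 (rho = 0.73, adjusted permutation p = 0.0312) and not with Myh11 (rho = 0.63, adjusted permutation p = 0.0702). Within Ad-FAM3A the r of Foxo3 was 0.55 with Acta2 and 0.60 with Myh11 (exact permutation p = 0.199 and 0.155). Elk1 had r = 0.65 with Myh11 (adjusted permutation p = 0.0377), which was 0.35 without the 2 lowest aortas. With 1 aorta left out it was 0.54 to 0.74. By rank Elk1 did not pass with Myh11 (rho = 0.59, adjusted permutation p = 0.0876). The fitted slope of Elk1 on the contractile level was 0.24 with all aortas and 0.23 (SE 0.13) without both low aortas, and neither was called. It was 0.15 without Ad-sham1 alone and 0.32 without Ad-FAM3A6 alone. Within Ad-sham and within Ad-FAM3A the r of Elk1 with Myh11 was 0.88 and 0.70 (exact permutation p = 0.0167 and 0.0671), where each group holds 1 of the 2 aortas. The pooled r of Tcf21 with Myh11, 0.40, was -0.0061 without those 2 aortas, and it had not passed in 13 aortas (adjusted permutation p = 0.299). Mkl2 and Klf5 had r of 0.19 and 0.30 with Myh11 and of 0.13 and 0.14 with Acta2, and Olfm2 had -0.32 and -0.38, none of which passed.

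Mkl1 had opposite signs in the groups, and it is described because of them. Its r with Acta2 was 0.77 in Ad-sham and -0.78 in Ad-FAM3A (exact permutation p = 0.0722 and 0.0486, not adjusted), and its pooled r was -0.16. With Myh11 it was 0.74 and -0.69 (exact permutation p = 0.0944 and 0.0966, not adjusted). The fit gave a slope difference between groups of -0.74 (SE 0.22, edgeR adjusted p = 0.267), so that it was not called. At an unadjusted p under 0.05 it was 1 of 10 regulators counted, against 1324 of all genes (8.37%), and 0 regulators and 0 genes (0%) passed the adjusted threshold. In Ad-FAM3A6, the aorta with the lowest contractile level, Mkl1 was highest, and so was the T cell list, which summed to 261 CPM there and to 6.33 to 87.4 CPM in the other aortas, with none of its 6 markers at 0. Without Ad-FAM3A6 the slope difference was -0.45, and without Ad-sham1 it was -0.53, and neither had an unadjusted p under 0.05 in edgeR. The part of lymphocytes in the result was not tested.

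With the contractile level held equal, the groups again gave 0 of 10 regulators and 0% of all genes at the adjusted threshold. Elk1 was the 1 regulator with an unadjusted p under 0.05, against 1079 of all genes (6.83%): its log2 fold change was -0.33 (SE 0.14, edgeR adjusted p = 0.709). Myocd was 0.57 (SE 0.27, edgeR adjusted p = 0.709), smaller than the 0.94 without the contractile level in the fit. Over the alternatives the Elk1 value stayed between -0.40 and -0.26 and the Myocd value between 0.39 and 0.75.

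**Figure D4:**
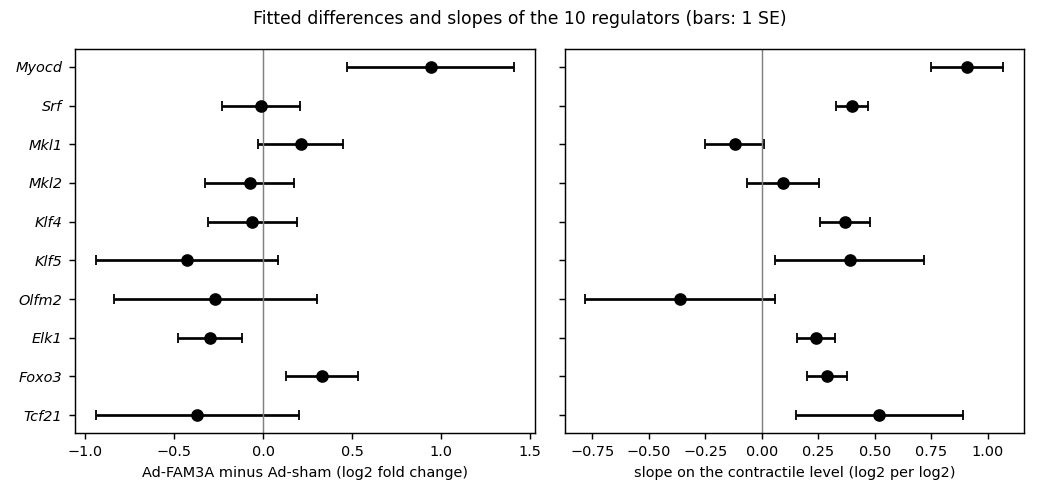
Fitted values of the 10 regulators with bars of 1 SE, on the left the log2 fold change of Ad-FAM3A over Ad-sham (n = 7 and 6) and on the right the slope on the contractile level, as log2 change per log2 unit, in 13 aortas. On the right Myocd (0.91) and Srf (0.40) lie farthest above 0 relative to their errors.

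The genes under these regulators were read from lists set by hand. Of the contractile targets, 22 could be tested against the contractile level, and 20 of them had slopes above 0, with a median of 0.81. The test called 19 as rising, beside 7.65% of all genes, among them Lmod1 (leiomodin, an actin nucleator) at 1.14, Smtn (smoothelin) at 1.07, Tpm2 (tropomyosin) at 1.05, Cnn1 (calponin) at 0.95 and Tagln (transgelin) at 0.73. The 4 targets whose promoters are printed above had slopes of 1.12 (Myl9), 0.34 (Cnn2), 0.69 (Vcl) and 0.82 (Ldb3), and all but Cnn2 (adjusted p = 0.125 by edgeR) were called. Casq2, the calsequestrin that is abundant in heart, was the 1 target called as falling (-0.98, edgeR adjusted p = 0.0257), and Pln, phospholamban, had -0.73 (adjusted p = 0.0557 by edgeR). The cardiac marker sums given above were highest in the aortas of the lowest contractile level, and their part in these 2 slopes was not tested.

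Between groups, 21 of 24 contractile targets had log2 fold changes above 0 (median 0.28), none was called, and Tagln (0.79, SE 0.36, edgeR adjusted p = 0.81) was the 1 with an unadjusted p under 0.05, beside 5.91% of all genes. Ldb3, at 0.85, had the largest value and Casq2, at -0.15, the smallest. Of the 12 immediate-early genes, a class that includes targets of SRF with Elk-type partners, 10 were lower in Ad-FAM3A (median -0.42) and none was called. A promoter window was available for 9 of them, and 1 of these genes held a CArG box. Junb (-1.12, SE 0.33) and Egr1 (-0.95, SE 0.39) had unadjusted p-values under 0.05 in edgeR (adjusted p = 0.81 for both), beside 5.91% of all genes, and Atf3, at 1.19, had the largest value. With the contractile level held equal, 11 of the 12 were lower and 1 was higher (median -0.53). None was called, and 6 had an unadjusted p under 0.05 in edgeR, beside 6.83% of all genes. Dusp1, a phosphatase that limits MAP kinases, was the 1 of 12 immediate-early genes called for a slope on the contractile level (0.60, adjusted p = 0.00279), beside 11.1% of all genes.

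Among 20 other regulators of smooth muscle, 0 were called between groups, with values from -0.27 (Heyl) to 0.65 (Sox9, the chondrogenic factor). With the contractile level, 3 of the 20 were called, beside 11.1% of all genes, and all 3 rose, beside 7.65%: Heyl (0.84) and Hey2 (0.63), targets of Notch, and Gata6 (0.68), a factor of mature VSMCs. Of 12 genes of dedifferentiated smooth muscle, 0 were called in either comparison, with group values from -0.28 (Ly6a) to 0.80 (Lgals3, galectin-3) and slopes from -0.27 (Spp1, osteopontin) to 0.86 (Acan, aggrecan, adjusted p = 0.0986 by edgeR). Directions of the groups in this report are those of the labels, which Fam3a did not separate.

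Whether the regulators vary together was examined over the 45 pairs. Of these, 2 passed at an adjusted p under 0.05 for Pearson's r and 0 for rho: Myocd with Foxo3 (r = 0.80, rho = 0.72, adjusted permutation p = 0.0423 and 0.116) and Srf with Klf4 (r = 0.80, rho = 0.74, adjusted permutation p = 0.049 and 0.116). Without the 2 aortas farthest from the median of the first gene, r was 0.58 and 0.72. Within groups, Myocd with Foxo3 gave r = 0.94 in Ad-sham and 0.68 in Ad-FAM3A, and Srf with Klf4 gave 0.60 and 0.90. Myocd and Srf, partners on DNA, had r = 0.73 (adjusted permutation p = 0.0724), and 0.83 and 0.82 within the groups.

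A whole aorta holds other cell types that express some of these genes, so each regulator was set against 13 marker lists, giving 130 relations, of which 3 passed for r. These were Srf and Myocd with the smooth muscle list (r = 0.86 and 0.83, adjusted permutation p = 0.013 and 0.0182), which holds Myh11 and Acta2 (rho = 0.90 and 0.75, adjusted permutation p = 0.00585 and 0.0914, so that Myocd did not pass by rank), and Olfm2 with the sympathetic neuron list (r = 0.82, rho = 0.91, adjusted permutation p = 0.0182 and 0.00585). Olfm2 gave 0.81 without the 2 aortas farthest from the median of the list, 0.83 within Ad-sham and 0.79 within Ad-FAM3A. The aortas with the most Olfm2, Ad-sham5 (28.7 CPM), Ad-FAM3A3 (27.9 CPM) and Ad-sham3 (19.4 CPM), had the 3 highest mean log2 CPM of the sympathetic list, 6.96, 6.96 and 6.65, and the aortas with the least, Ad-sham2 (1.64 CPM) and Ad-sham4 (4.11 CPM), had the 2 lowest, 1.31 and -1.17. The summed list ranged from 14.4 to 1458 CPM in Ad-sham and from 43.4 to 1569 CPM in Ad-FAM3A, and of its 8 genes Dbh, the enzyme that makes noradrenaline, was at 0 in 1 aorta. Olfm2 also had r = 0.75 with the Schwann cell list (rho = 0.83, adjusted permutation p = 0.0689 and 0.0342). With the kidney list its r was 0.67, and 0.74 within each group (rho = 0.56, adjusted permutation p = 0.133 and 0.279), which did not pass.

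Klf4 had its highest r, 0.75, with the endothelium list (rho = 0.80, adjusted permutation p = 0.0689 and 0.065), above 0.62 with the smooth muscle list, a difference that was not tested. Its r with endothelium was 0.84 in Ad-sham and 0.78 in Ad-FAM3A. Mkl2 had 0.71 with the same list and -0.71 with the adipocyte list, and Mkl1 had 0.79 with the T cell list, which fell to 0.32 without Ad-FAM3A6 and Ad-sham4 (adjusted permutation p = 0.113, 0.115 and 0.0643 in all 13 aortas). Without the 2 aortas farthest from the median of each list, the Mkl2 values were 0.44 and -0.55. Within Ad-sham and Ad-FAM3A, Mkl2 had 0.95 and 0.30 with endothelium, and -0.97 and -0.43 with adipocyte. Srf and Myocd had negative r with the sympathetic neuron list (-0.68 and -0.62, adjusted permutation p = 0.133 and 0.162). None of these passed.

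**Figure D5:**
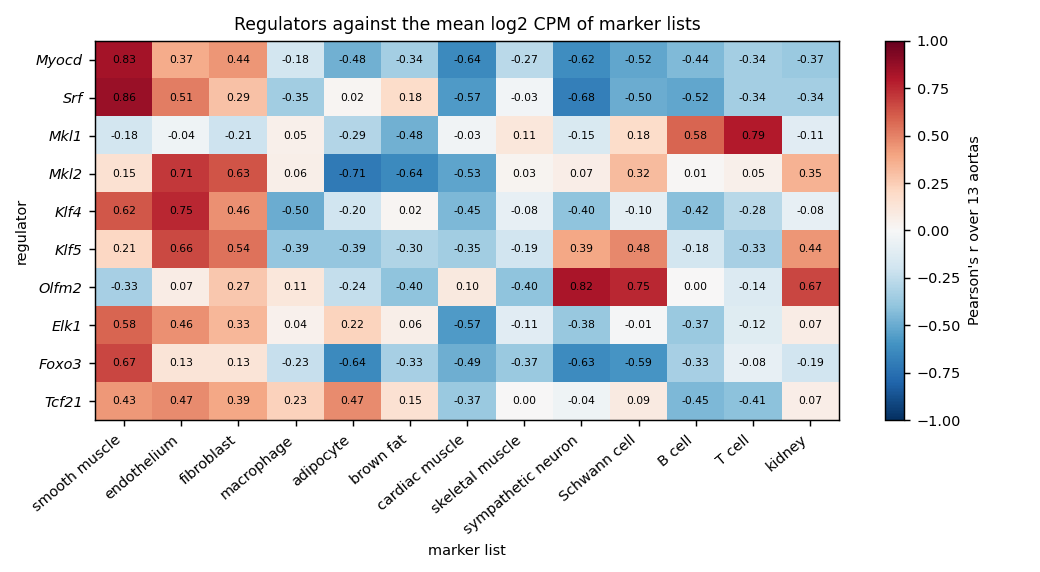
Pearson's r over 13 aortas between the log2 CPM of each regulator (rows) and the mean log2 CPM of each of 13 marker lists (columns), from blue (-1) through white (0) to red (1). Srf and Myocd are red with smooth muscle (0.86 and 0.83) and Olfm2 with sympathetic neuron (0.82).

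For each regulator, the 5 tested genes with the highest r of log2 CPM over the 13 aortas were listed. With Myocd these were Atp10a, Enah, Pdlim5, Dtna and Ldb3 (r = 0.962 to 0.948), of which Enah, Pdlim5 and Ldb3 encode proteins of the actin cytoskeleton, and all 5 had r of 0.76 to 0.89 with the contractile level. With Srf they were Dnajb5, Irak2, Rhob, Pcp4l1 and Hdac5 (0.945 to 0.907). Mkl1 was most like Dnmt1, Git2, Tcof1, Cdk5rap2 and Sf3a1 (0.949 to 0.937), all with negative r to the contractile level (-0.15 to -0.37), and Mkl2 was most like Apbb2, Sertad2, Fgd5, Il6st and Cpd (0.936 to 0.877).

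Klf4 was most like Epas1, Klk10, Nos3, Megf6 and Gm12295 (0.893 to 0.865), among them Epas1, a hypoxia-inducible factor, and Nos3, the endothelial nitric oxide synthase. Klf5 was most like Cnnm3, Gfod1, Afap1l2, Ptch1 and Avpr1a (0.893 to 0.838). Olfm2 was most like Cyb561, Dpysl2, Olfm1, Nmnat2 and Tro (0.965 to 0.938), of which Cyb561 is a cytochrome of catecholamine vesicles and Dpysl2 and Nmnat2 act in axons. Elk1 was most like Pik3r2, Zc3h7b, Mvp, Zfp414 and Arsa (0.957 to 0.908), Foxo3 like Mertk, Myo9b, Aff1, Tnfrsf11a and Clip1 (0.914 to 0.889), and Tcf21 like Ndufa4l2, 4732491K20Rik, Nrbp2, Gm20632 and Fgf11 (0.871 to 0.843). These were chosen as the highest of all genes, so the values are a description.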

How the data were processed

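RNA from 13 aortas was sequenced, 1 library each. The authors filtered the reads, aligned them to GRCm38 with Hisat2 and counted them per Ensembl gene with FeatureCounts, and deposited raw counts. They also deposited FPKM, as 1 mean per group, which was not used here for tests. Per the file headers, gene length is given in bases. The annotation release, strand setting and handling of multi-mapped reads are not given in the sources used here, so overlapping genes (Mkl1 with Sgsm3, Mkl2 with Gm15738, Elk1 with Uxt) are uncertain. The labels and the study's text name different extraction and library kits.

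Counts were analysed in R 4.3.3 with edgeR 4.0.16 (TMM, filterByExpr, quasi-likelihood test, Benjamini-Hochberg over 15811 genes, or 15809 where the contractile level was a term, since Myh11 and Acta2 define it). Calls were made at an adjusted p under 0.05. SE values are the coefficient divided by the square root of F. Correlations and permutation tests were run in Python 3.11.15 with scipy 1.17.1 on log2 CPM, with 100000 resamples or exact enumeration. Nothing says whether aortas were processed in batches. Tested on simulated data with 200 genes changed, the group test called 75% of genes given a 2-unit log2 change, with 1.32% of calls unchanged genes, and the level test 64.5% of those changed by a slope of 1, with 5.15%. Genes named in the text are the 10 regulators, Myh11, Acta2 and Fam3a, list members with an unadjusted p under 0.05 by group or the smallest or largest value of their list, and the 5 genes most like each regulator. Other list members with slopes were named after their values were seen. The regulators and lists were chosen with earlier results of these data known. Alternatives were 3 other scalings, 2 other filters, DESeq2 1.42.0, limma-voom (limma 3.58.1), Myh11 or Acta2 alone as the level, no group term, a replicate block and each aorta left out. Leaving out Ad-sham1 and Ad-FAM3A6 together was chosen after seeing the data. At this depth a count of 0 allows up to 3 counts, and counting intervals cover counting error only.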

Additional observations from a re-analysis of the deposited data

Results flagged for a closer look

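Among the 24 groups of values examined (10 regulators, Myh11 and Acta2 in each group), 1 held a single aorta far from the others, where chance gives about 1.2. Olfm2 had a log2 CPM of 4.81 in Ad-FAM3A3, against 2.17 to 3.18 in the other 6 Ad-FAM3A aortas. In the same aorta the sympathetic neuron list was the highest of its group (mean log2 CPM 6.96), and the kidney list was the highest of all 13 aortas by mean log2 CPM (4.60, against 0.18 or less in the other Ad-FAM3A aortas). By summed CPM the kidney list was highest in Ad-sham6 (648 CPM) and second in Ad-FAM3A3 (362 CPM), and 5 of its 7 markers were at 0 in at least 1 aorta. Over the 7 Ad-FAM3A aortas the r of Olfm2 was 0.79 with the sympathetic neuron list and 0.74 with the kidney list. Both r include Ad-FAM3A3, the aorta flagged here, so they are not separate from it. They were not computed over the other 6 Ad-FAM3A aortas.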

How the results depend on the processing

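The 0 regulators called between groups stayed at 0 in all 22 alternatives, and the 0 genes in all but DESeq2, which called 3 genes. For the contractile level, DESeq2 called 2779 genes and 5 regulators, adding Elk1 and Foxo3 (adjusted p = 0.0423 and 0.0438), with 57.1% of calls rising, against 69% in edgeR. The share was 62.6% with DESeq2's size factors, 64.9% with library totals and 59.8% with upper quartiles. Leaving out 1 aorta gave 440 to 1885 genes and 1 to 3 regulators. The 440 and the 1 were without Ad-FAM3A6, and without Ad-FAM3A4 there were 919 genes. Without both Ad-sham1 and Ad-FAM3A6, 103 genes and 0 regulators were called.

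Aortas of the same replicate number were alike in some pairs only (r of deviations -0.33 to 0.45 over 6 pairs, 3 above 0.1, 1 aorta best with its own number). These r cannot show whether such aortas shared a processing batch, since their content of other tissue also varied. With the replicate block, in which Ad-FAM3A7 has no partner, 0 genes and 0 regulators were called by the contractile level, with Myocd at 0.89 and Srf at 0.42 (edgeR adjusted p = 0.164 and 0.268). Other slopes moved more: Klf5 was 0.92, Tcf21 0.77, Klf4 0.53 and Mkl2 0.38. Elk1 and Foxo3 were both 0.17, Mkl1 was -0.17 and Olfm2 was -0.19.

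Group differences near 0 changed sign. Srf was 0.0063 with DESeq2 or its size factors, 0.0019 with library totals, 0.004 with no filter and 0.045 with the block, Mkl2 was 0.016 with limma-voom, Olfm2 was 0.031 with the block, and Mkl1 was -0.077 without the 2 low aortas. With 1 aorta left out, Srf ranged from -0.11 to 0.089, Klf4 from -0.23 to 0.026, Mkl2 from -0.19 to 0.18, Olfm2 from -0.75 to 0.15, Klf5 from -0.63 to -0.17, Tcf21 from -0.60 to -0.15, Mkl1 from 0.008 to 0.35 and Myocd from 0.62 to 1.27. The block gave -0.85 for Tcf21 and -0.10 for Klf5, against 0.85 for Myocd. Slopes ranged from -0.30 to 0.20 for Mkl1 and from -0.040 to 0.18 for Mkl2, 0.20 to 0.56 for Klf5, 0.085 to 0.86 for Tcf21 and -0.88 to -0.13 for Olfm2, and without the 2 low aortas were 0.042 for Mkl1, -0.17 for Mkl2, -0.012 for Klf5, 0.16 for Tcf21 and -1.36 for Olfm2. The slope of Elk1 ranged from 0.15 to 0.32 with 1 aorta left out. With 1 aorta left out, r with Acta2 ranged from -0.0028 to 0.28 for Mkl2, -0.0041 to 0.27 for Klf5, -0.50 to 0.41 for Mkl1 and -0.061 to 0.66 for Tcf21, and r with Myh11 from -0.52 to 0.50 for Mkl1 and -0.071 to 0.62 for Tcf21. For Mkl2 and Klf5 r with Myh11 ranged from 0.021 to 0.39 and from 0.15 to 0.50. Olfm2 ranged from -0.43 to -0.17 with Myh11 and from -0.50 to -0.30 with Acta2. Without the 2 low aortas, r with Myh11 and with Acta2 was 0.075 and 0.043 for Mkl1, -0.19 and -0.20 for Mkl2, -0.049 and -0.26 for Klf5, -0.0061 and -0.0073 for Tcf21, and -0.53 and -0.57 for Olfm2. Over the alternatives, 19 values of r lost the adjusted threshold and 5 gained it. The cause was not tested.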
